A study of Mus musculus with 13 samples.

Results

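The genes described here are 8 genes of the red cell: the adult beta-globin genes Hbb-bs and Hbb-bt, the adult alpha-globin genes Hba-a1 and Hba-a2, and Alas2, Slc4a1, Bpgm and Slc25a37. They were named as genes for hemoglobin, heme and the red cell, with earlier results of these data known, from 36109 genes listed in the files, and the 2 copies of each globin were also summed as the Hbb pair and the Hba pair. RNA had been sequenced from Hmox2-/- mice (KO), null for heme oxygenase 2, and from their Hmox2+/+ littermates (WT), all kept in room air. The 13 libraries came from aortic endothelial cells (EC; 3 WT and 3 KO) and whole heart (4 WT and 3 KO). The labels give neither age nor sex, and the study describes the sequenced mice as young. ECs were not sorted or cultured: TRI Reagent was run through the aortic lumen, so each EC library holds whatever RNA the reagent released there. Heart tissue was frozen. Both the heart and the vessels had been rinsed with PBS beforehand to clear them of blood.

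Hemoglobin is built from alpha-globin and beta-globin chains that each hold a heme, and its mRNA is among the most abundant of the immature red cell and is still carried by reticulocytes, the youngest red cells of the blood. Heme is made in mitochondria, where Alas2 catalyses the first step in erythroid cells and Slc25a37 (mitoferrin-1) brings in iron. Heme oxygenases, of which Hmox2 is the constitutive form, break heme down to biliverdin, carbon monoxide and iron.

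The copies of a globin are so alike that a read lying within a stretch they share cannot be assigned to one of them. Over 444 coding bases, Hbb-bs (chr7:103475730-103482989, minus strand, GRCm39) and Hbb-bt (chr7:103461727-103465047, minus strand) differed at 1 base, and the 148 codons of both encode the same residues. Hba-a1 (chr11:32233186-32234504, plus strand) and Hba-a2 (chr11:32246168-32247320, plus strand) differed at 1 of 429 coding bases, again without a change of residue. The last 120 coding bases of each gene, all in its last coding exon, hold that base and are shown because they carry the only coding letter by which a read can tell the copies apart. It is in capitals, and the strand shown is that of the mRNA. Hbb-bs lies at chr7:103475872-103475991, Hbb-bt at chr7:103461863-103461982, Hba-a1 at chr11:32234272-32234391 and Hba-a2 at chr11:32247089-32247208, all in GRCm39.
Hbb-bs: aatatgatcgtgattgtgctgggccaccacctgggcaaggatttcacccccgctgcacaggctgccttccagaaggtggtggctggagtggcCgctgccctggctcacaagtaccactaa
Hbb-bt: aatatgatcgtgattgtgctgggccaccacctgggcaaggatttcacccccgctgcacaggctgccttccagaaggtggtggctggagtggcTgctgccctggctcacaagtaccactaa
Hba-a1: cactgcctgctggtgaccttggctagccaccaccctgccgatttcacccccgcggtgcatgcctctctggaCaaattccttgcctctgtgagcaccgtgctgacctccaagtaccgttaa
Hba-a2: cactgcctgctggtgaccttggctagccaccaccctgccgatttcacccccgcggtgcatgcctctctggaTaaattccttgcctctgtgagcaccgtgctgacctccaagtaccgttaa
Over whole transcripts, 51.9% of the 31-base words of Hbb-bs occurred in Hbb-bt and 59.3% of those of Hbb-bt in Hbb-bs. For the alpha-globins the shares were 85.1% of Hba-a1 in Hba-a2 and 95.7% of Hba-a2 in Hba-a1. Values of a single copy are therefore uncertain, and those of a pair are not affected by how reads were split between its copies. Of the other members, Alas2 (chrX:149330371-149353634, plus strand) shared 11.8% of its words with Apex2, which overlaps it on the opposite strand. Slc25a37 (chr14:69479297-69522561, minus strand) shared 7.32% with Gm16867, and Bpgm (chr6:34453142-34484029, plus strand) shared 0.929% with any one gene. Slc4a1 (chr11:102239650-102257029, minus strand) shared none.

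The promoters of the genes that moved together in heart are shown for their common short motifs. RefSeq sequences of GRCm38.p6 matched 6 of the 8 members, and Slc4a1 and Slc25a37 were not among them. The 250 bases before the start were searched on both strands for GATAA (the core read by Gata1), CACCC (read by Klf1), CCAAT and TATAA, and matches are in capitals. They were Hbb-bs at chr7:103827929-103828178 (minus strand), Hbb-bt at chr7:103813924-103814173 (minus strand), Hba-a1 at chr11:32283422-32283671 (plus strand) and Alas2 at chrX:150547167-150547416 (plus strand).
Hbb-bs: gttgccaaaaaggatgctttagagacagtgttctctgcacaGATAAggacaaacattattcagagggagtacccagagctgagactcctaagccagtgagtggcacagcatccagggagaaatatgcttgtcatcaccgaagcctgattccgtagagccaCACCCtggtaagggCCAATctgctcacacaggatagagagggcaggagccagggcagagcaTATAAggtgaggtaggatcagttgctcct
Hbb-bt: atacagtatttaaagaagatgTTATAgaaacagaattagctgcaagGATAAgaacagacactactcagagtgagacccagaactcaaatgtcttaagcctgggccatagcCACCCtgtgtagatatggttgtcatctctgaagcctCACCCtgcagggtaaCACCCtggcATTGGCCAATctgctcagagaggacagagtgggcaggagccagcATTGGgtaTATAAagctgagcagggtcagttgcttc
Hba-a1: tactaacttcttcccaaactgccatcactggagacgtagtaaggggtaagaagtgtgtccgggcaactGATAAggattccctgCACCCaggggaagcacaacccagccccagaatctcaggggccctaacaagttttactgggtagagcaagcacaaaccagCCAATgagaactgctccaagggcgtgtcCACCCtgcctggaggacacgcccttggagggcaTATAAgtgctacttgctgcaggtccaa
Alas2: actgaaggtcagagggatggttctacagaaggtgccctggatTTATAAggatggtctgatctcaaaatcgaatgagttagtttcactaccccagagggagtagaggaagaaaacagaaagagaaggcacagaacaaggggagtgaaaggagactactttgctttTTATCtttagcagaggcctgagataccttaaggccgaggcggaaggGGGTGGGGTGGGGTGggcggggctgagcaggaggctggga
The window of Hba-a2 is the same as that of Hba-a1 over 247 consecutive bases and is not shown. GATAA was in 5 of the 6 windows and in 22.6% of all 32851 promoters, CACCC in 5 and 52.0%, CCAAT in 5 and 33.9%, and TATAA in 5 and 22.8%. Bpgm held CCAAT only, and Alas2 held all but CCAAT. The CACCC matches of Alas2 lie end to end without sharing a base, and both of its TATAA matches overlap.

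Depth lay between 26067147 and 31619776 estimated counts, except in heart WT 1, which had 7268626. Levels within a gene are given in TMM-normalised counts scaled to a library total (CPM), and levels between genes in TPM, which accounts for length. Genotypes were compared with edgeR's quasi-likelihood test within each tissue, with p adjusted by the Benjamini-Hochberg method over all genes tested, and a gene passed at an adjusted p of at most 0.05. Nothing in the labels ties a library to a separate mouse beyond its number, so p-values measure the spread between these libraries. Hmox2, the deleted gene, was at 63.9 to 76.2 CPM in EC WT and 12.6 to 14.8 CPM in EC KO, and at 37.3 to 42.5 CPM in heart WT and 7.53 to 8.90 CPM in heart KO, so every library matched its label. Hmox2 shares 70.7% of its 31-base words with Cdip1, which limits what its remaining counts show.

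**Figure D1:**
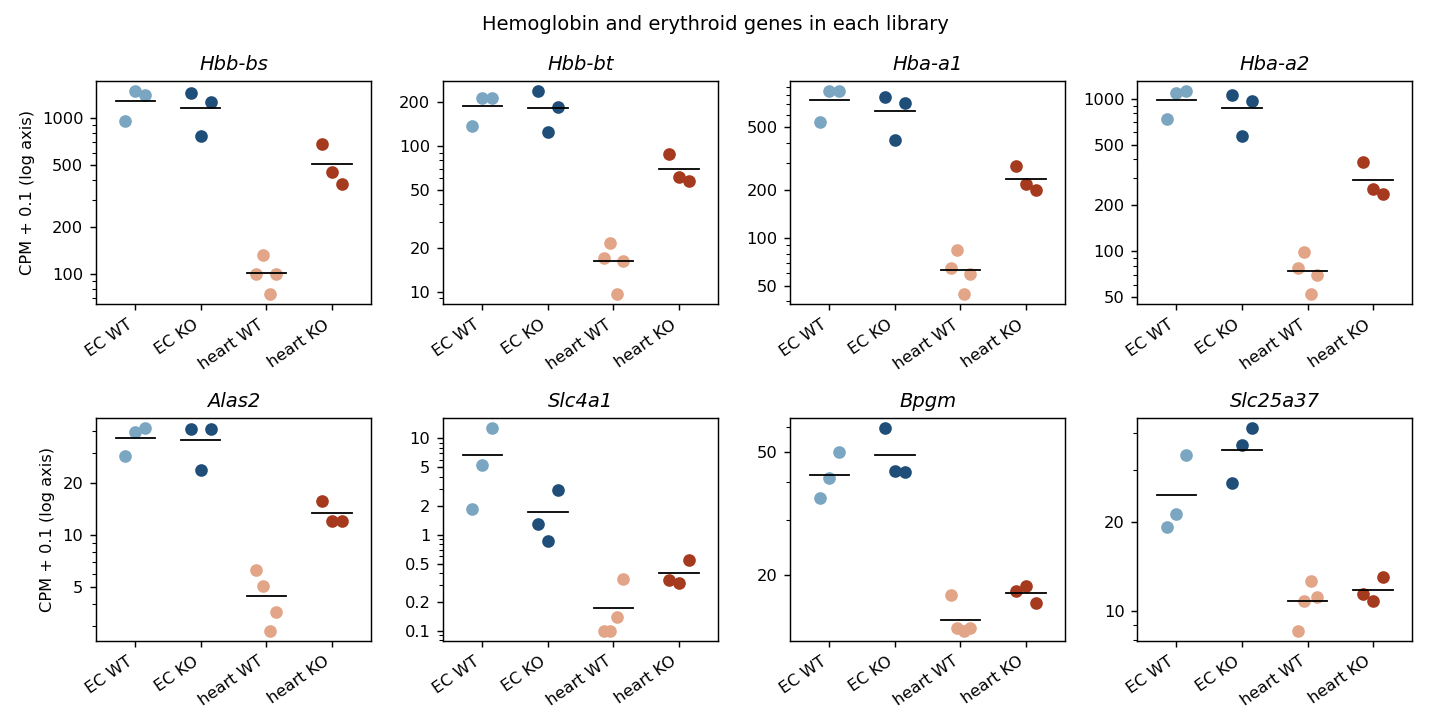
CPM + 0.1 of the 8 genes on a log axis, 1 point per library, for EC WT, EC KO, heart WT and heart KO, with the group mean as a line. The 4 globins and Alas2 were higher in all 3 heart KO libraries than in all 4 heart WT libraries, and the EC groups overlapped for all 8 genes.

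In heart, the hemoglobin genes were several-fold higher in KO. All 4 globins and Alas2 rose, and no library of either genotype overlapped the other for these 5 genes. Bpgm and Slc25a37 did not pass, and Slc4a1 had too few counts to be tested. Thus 5 of 7 tested members passed, all of them higher, against 33.4% of 13816 genes that passed in either direction and 17.2% that passed as higher. Libraries were higher in KO without overlap for 20.6% of all genes. The 5 members passed with a rise of at least 1 on the log2 scale, which 2.66% of all tested genes did. These counts describe genes chosen with results known, and the copies of each globin share reads and are not separate evidence. In whole tissue, more cells of a type and more RNA per cell cannot be told apart.

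Hbb-bs, the more abundant beta-globin copy, was at 99.6, 133, 74.3 and 101 CPM in the 4 heart WT libraries and at 683, 450 and 380 CPM in the 3 heart KO libraries. The lowest KO library was well above the highest WT library. The means differed 4.95-fold, and the fitted change was 2.31 on the log2 scale (SE 0.22, adjusted p = 4.2e-05). Hbb-bt, the minor copy, was at 17.0, 21.5, 9.52 and 16.2 CPM in WT and at 88.5, 61.6 and 57.1 CPM in KO. It rose by 2.11 on the log2 scale (SE 0.23, adjusted p = 1.4e-04). Summed, the Hbb pair went from 118 ± 28.9 CPM (SD, n = 4) to 574 ± 176 CPM (SD, n = 3), a log2 fold change of 2.28 (95% interval 1.86 to 2.71, adjusted p = 4.8e-05). Heart KO 1 was the highest of the 3 KO libraries for both beta-globins and both alpha-globins, and heart WT 3 was the lowest of the 4 WT libraries. Without heart KO 1 the log2 fold change of the Hbb pair was 2.01, and without heart WT 1, the shallow library, it was 2.27.

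The alpha-globins had the same highest and lowest heart library in each genotype as the beta-globins. Hba-a1 was at 65.0, 83.7, 44.2 and 59.7 CPM in heart WT and at 286, 218 and 200 CPM in heart KO, a rise of 1.90 on the log2 scale (SE 0.19, adjusted p = 7.2e-05). Hba-a2 was at 77.2, 98.1, 52.0 and 69.5 CPM in WT and at 383, 257 and 238 CPM in KO, a rise of 1.98 (SE 0.21, adjusted p = 1.0e-04). The Hba pair went from 137 ± 35.4 CPM (SD, n = 4) to 527 ± 124 CPM (SD, n = 3), a log2 fold change of 1.94 (95% interval 1.55 to 2.33, adjusted p = 8.4e-05).

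Alas2, which encodes the erythroid form of the first heme synthesis enzyme, was at 6.25, 4.99, 2.70 and 3.50 CPM in heart WT and at 15.7, 12.1 and 12.1 CPM in heart KO. The groups did not overlap, and the rise was 1.69 on the log2 scale (SE 0.23, adjusted p = 6.3e-04). Apex2, which overlaps Alas2 on the other strand, had a log2 fold change of -0.13 (adjusted p = 0.60). Heme of other cells is made through Alas1, which was at 101 to 180 TPM in heart WT and 118 to 167 TPM in heart KO (log2 fold change -0.19, adjusted p = 0.37).

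The other red cell members differed less or were barely detected in heart. Bpgm encodes the enzyme that makes 2,3-bisphosphoglycerate, which lowers the oxygen affinity of hemoglobin. Its values were 17.1, 13.4, 13.1 and 13.3 CPM in heart WT and 17.6, 18.4 and 16.2 CPM in KO, and heart WT 1 lay within the KO range. The fitted difference was 0.31 (SE 0.12, adjusted p = 0.065) on the log2 scale, and without heart WT 1 it was 0.39 (adjusted p = 0.028). With counts rebuilt from length-scaled TPM it was 0.56 (adjusted p = 0.011). Slc25a37 was at 8.48, 10.7, 12.5 and 11.1 CPM in WT and at 11.3, 10.7 and 12.9 CPM in KO. Its groups overlapped, and its log2 fold change was 0.10 (95% interval -0.17 to 0.37, adjusted p = 0.60). Slc4a1 encodes band 3, the anion exchanger of the red cell membrane. It had 0, 0, 1 and 7 estimated counts in the heart WT libraries and 8, 7 and 15 in the KO libraries, which is too few for a fold change within heart.

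**Figure D2:**
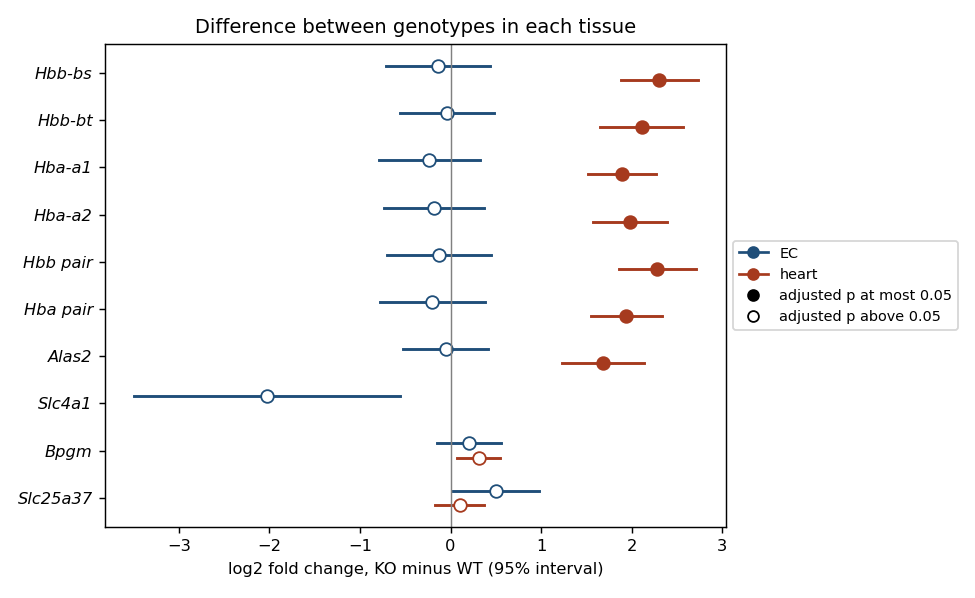
Log2 fold change, KO minus WT, of the 8 genes and the 2 globin pairs with 95% intervals, in EC (blue) and heart (red); filled points passed at an adjusted p of at most 0.05. The heart values of the globins and Alas2 lie between 1.69 and 2.31 and those in EC between -0.23 and -0.04.

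Short transcripts as a whole were higher in heart KO, and the globin mRNAs are short. Mean transcript lengths were 628 bases for Hbb-bs, 703 for Hbb-bt, 699 for Hba-a1, 554 for Hba-a2 and 1997 for Alas2. In heart the median log2 fold change was 0.63 over 286 genes of 500 to 700 bases, of which 57.7% passed as higher, and -0.42 over 1698 genes of at least 5000 bases. The 90th percentile of the genes of 500 to 700 bases was 1.16, and each globin was above it. Over 1985 genes of 1500 to 2000 bases, the range that holds Alas2, the median was 0.18 and the 90th percentile 0.63. When a trend on length and GC content, estimated for each library, was removed, the log2 fold change fell to 1.68 for the Hbb pair (adjusted p = 2.7e-05), to 1.30 for the Hba pair (adjusted p = 1.1e-04) and to 1.53 for Alas2 (adjusted p = 3.9e-04). All 5 members still passed. What the trend over all genes comes from was not tested. The shares over all genes that are set beside the gene lists below were not matched for length. The 13 mitochondrially encoded mRNAs together took 57.6% to 65.6% of the TPM of heart WT and 34.5% to 43.4% of heart KO, and without them the log2 fold change of the Hbb pair was 2.28.

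**Figure D3:**
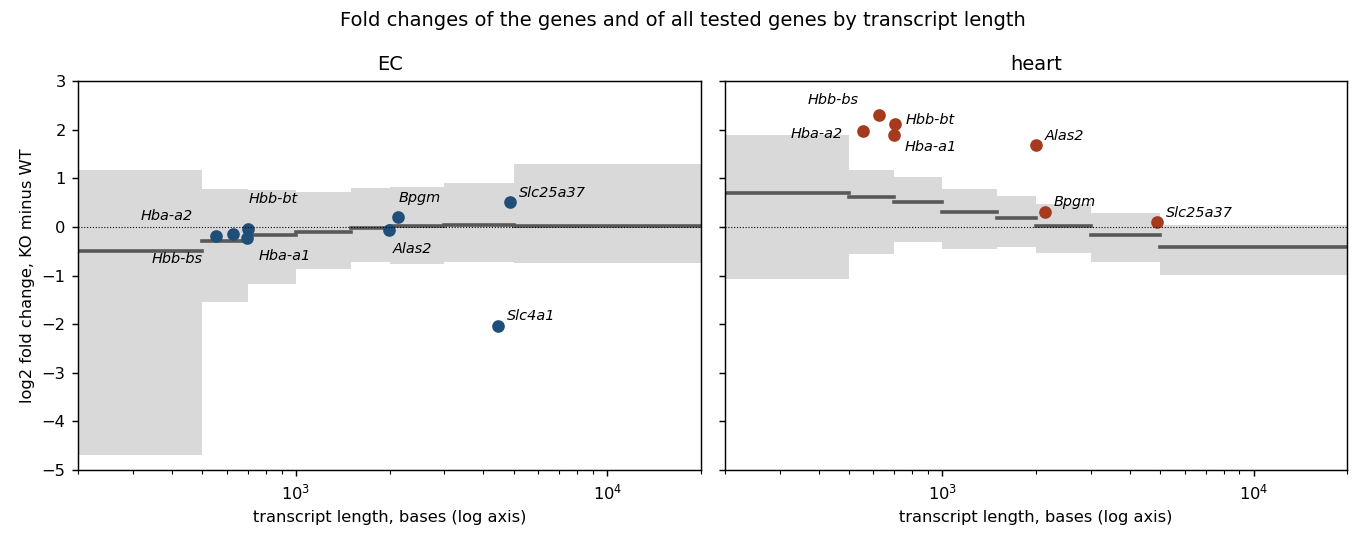
Log2 fold change, KO minus WT, against transcript length in bases (log axis) in EC and heart. Grey lines are medians over all tested genes of a length range, grey bands hold the middle 80% of those genes, and points are the members. In heart the medians fall from 0.69 under 500 bases to -0.42 at 5000 bases and over, and the globins and Alas2 lie above the bands.

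In EC, no member differed between genotypes by edgeR's test, where 18.1% of 15301 genes passed. At an unadjusted p under 0.05, 1 member, Slc4a1, stood out, and DESeq2 also called 1, the same gene. Hbb-bs was at 952, 1488 and 1408 CPM in EC WT and at 1453, 770 and 1273 CPM in EC KO. The Hbb pair was at 1470 ± 333 CPM (SD, n = 3) in WT and 1348 ± 409 CPM (SD, n = 3) in KO, a log2 fold change of -0.13 with a 95% interval of -0.70 to 0.45 (adjusted p = 0.79). EC WT 1 and EC KO 2 were the low libraries, so the spread within each genotype was wider than the difference between them. The intervals of the EC and heart values of the Hbb pair did not meet. Leaving out EC KO 2 turned the EC value of the Hbb pair to 0.10, and removing the length and GC trend turned it to 0.36 (adjusted p = 0.41).

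The Hba pair was at 1280, 1933 and 1966 CPM in EC WT and at 1833, 989 and 1673 CPM in EC KO. Its log2 fold change was -0.20 (95% interval -0.78 to 0.38, adjusted p = 0.65), and turned to 0.02 without EC KO 2 and to 0.48 with the trend removed (adjusted p = 0.28). Alas2 was at 28.7, 39.6 and 41.7 CPM in WT and at 41.3, 23.8 and 40.9 CPM in KO, low in the same 2 libraries as the globins, with a log2 fold change of -0.05 (adjusted p = 0.89). Bpgm differed by 0.21 on the log2 scale (SE 0.18, adjusted p = 0.44), and its libraries ran from 35.3 to 49.7 CPM in WT and from 42.7 to 59.6 CPM in KO.

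Slc25a37 was at 19.2, 21.1 and 33.4 CPM in EC WT and at 27.0, 36.3 and 41.4 CPM in EC KO, a log2 difference of 0.50 (SE 0.24, adjusted p = 0.18). Without EC WT 3 it was 0.79 (adjusted p = 0.033). Slc4a1 had 47, 155 and 412 estimated counts in EC WT and 34, 20 and 77 in EC KO. In CPM this was 1.74, 5.18 and 12.7 in WT and 1.20, 0.766 and 2.83 in KO, so the groups overlapped and EC WT 3 alone held most of the WT counts. The fitted log2 difference was -2.03 (SE 0.75, adjusted p = 0.097). It was -1.11 without EC WT 3 (adjusted p = 0.26), and it passed with DESeq2 (adjusted p = 0.017) and in 1 fit of all 13 libraries (adjusted p = 0.041). EC WT 3 was also the library with the highest summed TPM of a list of 14 neutrophil genes, 325 against 39.8 and 192 in the other WT libraries and 26.5 to 118 in KO. The part of these cells in the Slc4a1 values was not tested.

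The difference in genotype effect between tissues was tested as an interaction, heart minus EC, in 1 fit of all 13 libraries. It was 2.44 on the log2 scale for the Hbb pair (SE 0.39, adjusted p = 8.2e-04), 2.18 for the Hba pair (SE 0.38, adjusted p = 0.0013) and 1.78 for Alas2 (SE 0.36, adjusted p = 0.0033). The 4 single globins ranged from 2.17 to 2.48 and passed as well. Slc4a1 passed at 3.81 (SE 1.24, adjusted p = 0.033), a value that rests on heart WT libraries with 0 to 7 counts and did not pass in 8 of 13 fits that each left out 1 library. Bpgm (0.14, 95% interval -0.29 to 0.57) and Slc25a37 (-0.36, 95% interval -0.92 to 0.21) did not pass. Over all genes, 28.8% passed this test and 16.2% passed in the direction of the globins. With the length and GC trend removed, the interaction was 1.49 for the Hbb pair (adjusted p = 0.0092) and 1.01 for the Hba pair (adjusted p = 0.044).

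Ordered by level, heart WT was lowest, heart KO next, and the EC groups highest for every globin and for Alas2. In WT, heart was below EC. Heart minus EC on the log2 scale was -2.89 for the Hbb pair (adjusted p = 3.6e-07) and -2.90 for the Hba pair (adjusted p = 2.4e-07). It was -2.40 for Alas2 (adjusted p = 1.5e-06), -0.83 for Bpgm and -5.43 for Slc4a1. The Slc4a1 value rests on heart WT libraries with 0 to 7 counts, and ran from -7.68 to -4.51 when 1 library was left out. Slc25a37 (-0.43, adjusted p = 0.067) did not pass in this fit, but it passed as lower with DESeq2 (adjusted p = 0.040), RLE size factors (adjusted p = 0.045) and upper-quartile factors (adjusted p = 0.020). Its adjusted p ran from 0.0037 with the length and GC trend removed to 0.50 without EC WT 3, so its call depends on the processing. Of all genes, 65.8% passed and 33.7% passed as lower. In KO the tissues were closer. Heart minus EC was -0.44 for the Hbb pair (SE 0.28, adjusted p = 0.17), -0.72 for the Hba pair (adjusted p = 0.031) and -0.62 for Alas2 (adjusted p = 0.043), while 70.4% of all genes passed. The neighbours EC WT and EC KO did not differ beyond their spread for any globin. ECs and hearts were extracted with different kits, so tissue and extraction cannot be told apart in these contrasts.

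Per length, the globins were the leading members in every group. In EC WT mean levels were 3106 TPM for Hbb-bs, 2843 for Hba-a2, 1561 for Hba-a1, 390 for Hbb-bt, 23.2 for Bpgm, 21.8 for Alas2, 5.78 for Slc25a37 and 1.72 for Slc4a1. In heart WT they were 211, 184, 113, 28.5, 6.38, 2.35, 2.17 and 0.0143 TPM in the same order of genes. In heart KO, Hbb-bs reached 1262 ± 324 TPM (SD, n = 3) and Alas2 8.27 ± 1.02 TPM (SD, n = 3). The 4 globins made up 0.0536% ± 0.0182 of TPM in heart WT (SD, n = 4) and 0.280% ± 0.0607 in heart KO (SD, n = 3). This share too is raised in heart KO by the smaller mitochondrial part of TPM. Every KO library was above every WT library, and the two-sided exact permutation test gave its smallest possible p, 0.0286, adjusted to 0.057 over 2 tests. In EC the share was 0.790% ± 0.276 in WT and 0.689% ± 0.259 in KO (n = 3 each, exact permutation p = 0.50).

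The split of a pair between its copies lay in a narrow range. Hbb-bs was estimated at 85.4% to 88.6% of the counts of the Hbb pair over all 13 libraries, and Hba-a1 at 42.1% to 46.2% of those of the Hba pair. Hba-a1 was at 45.8% to 46.2% in heart WT, at 42.8% in heart KO 1 and at 46.0% and 45.6% in the other heart KO libraries, and at 42.1% to 43.8% in EC. In heart the KO minus WT difference of this share was -1.19 percentage points, and without heart KO 1 it was -0.19. The two-sided exact permutation tests of the copy shares gave adjusted p = 0.23 for each over 6 tests. They could not have passed, since the smallest p is 0.10 in EC and 0.0286 in heart, which is 0.17 over 6 tests, so they do not show that the shares were alike. The log2 ratio of the Hba pair to the Hbb pair in TPM was 0.38, 0.32, 0.28 and 0.23 in heart WT and -0.11, -0.02 and 0.10 in heart KO. All KO libraries were below all WT libraries, and the smallest possible p of 0.0286 became the same 0.17 after adjustment. In EC the ratio was 0.33 ± 0.05 in WT and 0.26 ± 0.04 in KO (SD, n = 3 each).

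**Figure D4:**
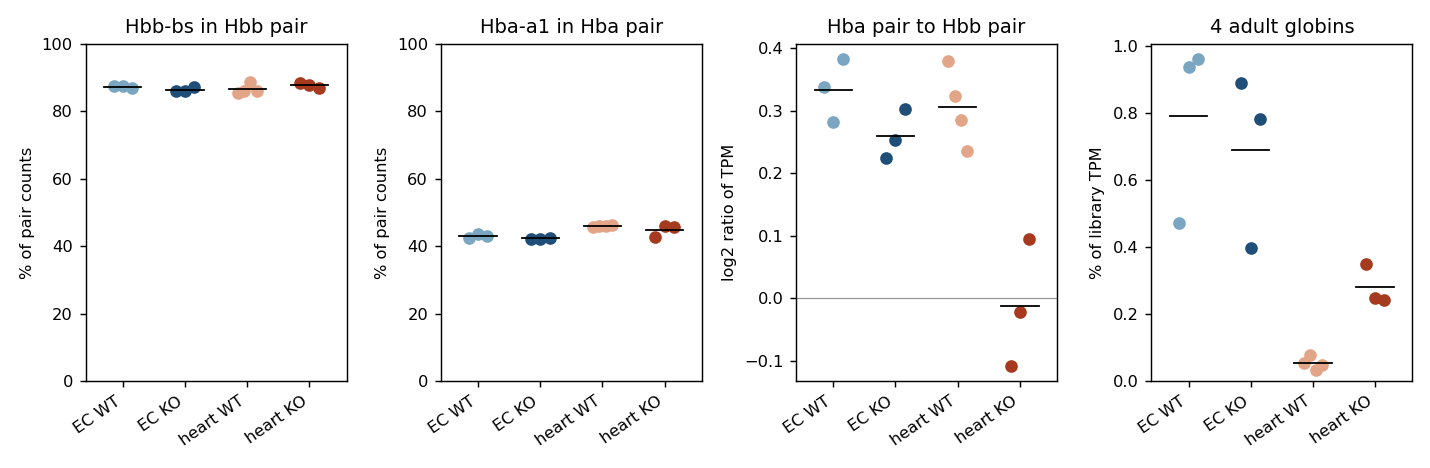
From left: Hbb-bs as a percentage of Hbb pair counts, Hba-a1 as a percentage of Hba pair counts, log2 ratio of Hba pair to Hbb pair TPM, and the percentage of library TPM in the 4 adult globins. Points are libraries and lines are group means; the copy shares stay between 85.4% and 88.6% and between 42.1% and 46.2%, and the alpha to beta ratio is lowest in heart KO.

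Set against the Hbb pair, Alas2 lay in a narrow range outside heart WT. There were 23.3 to 26.3 Alas2 counts per 1000 Hbb pair counts in EC WT, 24.4 to 28.0 in EC KO, 20.4 to 27.7 in heart KO and 30.0 to 53.6 in heart WT, the highest in the shallow heart WT 1. Bpgm ran from 22.8 to 48.3 per 1000 in EC WT, EC KO and heart KO and from 86.7 to 156 in heart WT. Slc4a1 varied more than any other member in EC, from 0.712 to 1.94 per 1000 in KO and from 1.59 to 7.86 in WT. These ratios were looked at after the values were known and carry no test.

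Over the 13 libraries, the gene whose centred log2 CPM was nearest to the Hbb pair was the Hba pair, with a root mean square difference of 0.14, and Alas2 was next at 0.33. The median over 15936 genes was 1.39. Bpgm was at 0.95, Slc25a37 at 1.10 and Slc4a1 at 1.28. The nearest genes outside the members were Rabl2 (0.42), Nme1nme2 (0.46), Hyi (0.46), Wnt2 (0.49) and Mt2 (0.49), a metallothionein. Nme1nme2, a readthrough gene, has 97.4% of its 31-base words in transcripts of other genes and is uncertain. These distances are descriptions over libraries that differ in tissue and depth as well as genotype.

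Other genes of the red cell were sparse. Of a list of 42 red cell and erythroid genes without the members, 40 were listed in the files. In heart, 26 were tested, 7 rose and 1 fell, with a median log2 fold change of 0.20 against -0.01 over all genes, of which 17.2% rose and 16.2% fell. Those that rose were Car2, a carbonic anhydrase (1.36), Rhd (1.18), the peroxiredoxin Prdx2 (0.81), Tent5c (0.75), Dmtn (0.72), Ube2l6 (0.64) and Tmod1 (0.27). Some genes of the list are also used by other cells: Ank1, at 144 to 196 TPM in heart WT, has a short muscle form. Genes that define the red cell lineage were near 0 in heart. Epb42 reached 0.166 TPM at most, the regulator Klf1 0.131 TPM and Gata1 0.0631 TPM, while Kel and Car1 were listed at 0 in all 7 heart libraries.

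In EC, 33 of the red cell genes were tested, 2 rose and 2 fell, with a median log2 fold change of -0.42 against -0.02 over all genes, of which 10% rose and 8.06% fell. The genes that fell were Aqp1, a water channel that endothelium also carries (-1.54), and Ank1 (-1.52). Slc2a1 (0.75) and Bnip3l (0.54) rose. Klf1 was at most 0.377 TPM. The embryonic globins Hbb-y, Hbb-bh2 and Hbb-bh0 were listed at 0 in all 13 libraries, and Hbb-bh1 and Hba-x reached at most 0.0930 and 0.0807 TPM.

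Myoglobin (Mb), the oxygen store of muscle, rose in heart KO, from 7885 to 9024 TPM in WT to 12660 to 17326 TPM in KO (log2 fold change 0.46, adjusted p = 0.014), a TPM range that also carries the smaller mitochondrial part. In EC it fell, from 29.9 to 140 TPM in WT to 0.614 to 3.59 TPM in KO (log2 fold change -5.13, adjusted p = 0.0055). Cardiomyocyte markers moved with it in EC: 11 of 12 fell, where 8.06% of all tested genes fell. Their summed TPM was 134 to 717 in WT and 10.7 to 14.6 in KO. Myl2 (-8.85), Myl3 (-8.13) and Myh6 (-7.53) fell most. The part of these cells in the EC values of Mb was not tested.

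Of 14 genes for heme synthesis and mitochondrial iron supply besides Alas2 and Slc25a37, 6 rose in heart KO and 1 fell. Among those that rose were Slc25a38, which brings glycine into mitochondria (0.73), Abcb6 (0.72), Tmem14c (0.65), Uros (0.63) and Urod (0.39), against 17.2% of all genes. Urod shares 54.0% of its 31-base words with Zswim5. Alad, the second enzyme of the pathway, fell in heart (-0.66, adjusted p = 0.0017), where 16.2% of all genes fell. In EC, Alad (-1.64, adjusted p = 0.0018) and Alas1 (-1.32, adjusted p = 0.047) fell and 12 genes did not pass. Of all genes tested in EC, 8.06% fell. The median log2 fold change of the list was 0.14 in heart and -0.23 in EC.

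Among 12 genes for the clearance of hemoglobin and heme, 11 were tested in heart, and 7 rose and 2 fell, against 17.2% of all tested genes that rose and 16.2% that fell. The median log2 fold change of the list was 0.65. Hmox1, the inducible heme oxygenase, was at 1.68 to 3.05 TPM in WT and 8.79 to 20.2 TPM in KO (adjusted p = 9.0e-04), a mean of 3.79 CPM in WT and 15.8 CPM in KO. Hp, which binds free hemoglobin, was at 0 to 0.546 TPM in WT and 2.38 to 2.97 TPM in KO (2.94, adjusted p = 4.9e-04). The ferritin chains Ftl1 (1.15) and Fth1 (0.69), both biliverdin reductases, Blvrb (0.67) and Blvra (0.65), and the heme transporter Slc48a1 (0.51) rose too, and Lrp1 (-0.48) and the deleted Hmox2 (-2.30) fell. Ftl1 shares 54.4% of its words with a pseudogene, and Slc48a1 shares 79.0% with Hdac7. In EC, Cd163, the macrophage receptor for hemoglobin bound to haptoglobin, rose (1.44, adjusted p = 0.0051), where 10% of all genes rose, and of the other 10 tested genes Hmox2 alone passed, as lower. Hmox1 in EC was at 6.76 to 15.6 TPM in WT and 9.45 to 55.9 TPM in KO (adjusted p = 0.15).

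**Figure D5:**
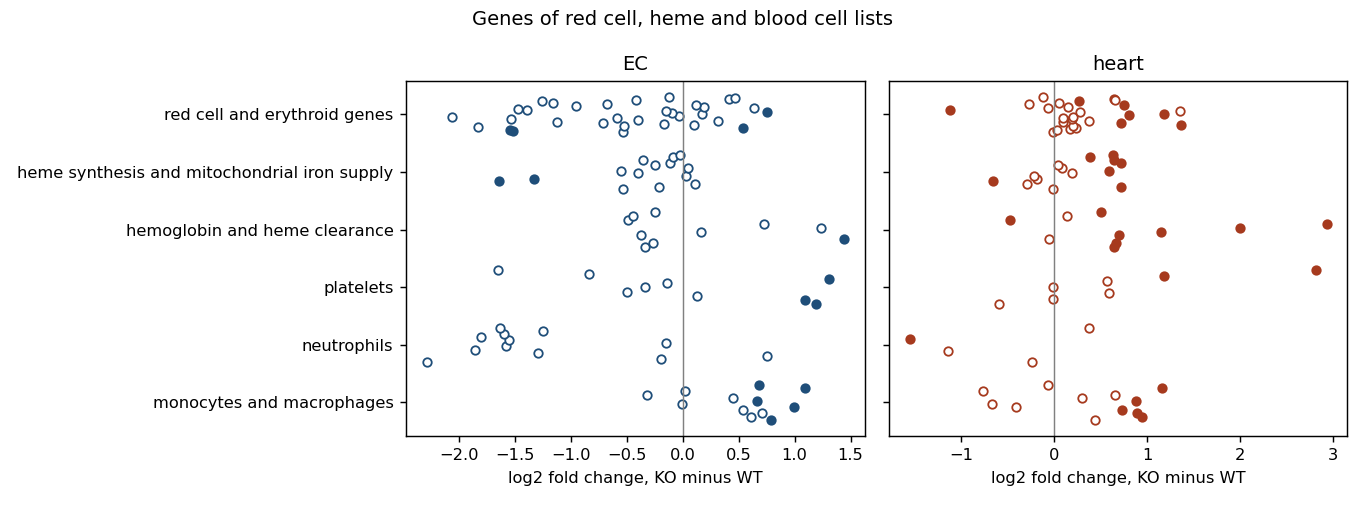
Log2 fold change, KO minus WT, of each tested gene of 6 lists in EC (blue) and heart (red), without Hmox2; filled points passed at an adjusted p of at most 0.05, and the height within a list only separates points. In the clearance list 7 genes rose in heart, and 1 rose in EC.

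Genes of other blood cells were measured beside the globins. The counts of genes that rose stand beside 17.2% of all tested genes in heart and 10% in EC. Those that fell stand beside 16.2% in heart and 8.06% in EC. TPM adds up to the same total in every library, so the smaller mitochondrial part of heart KO, given above, raises the TPM of other genes there, and summed TPM in heart is to be read with the fitted median of its list. Of 14 platelet genes, 7 were tested in heart and 2 rose, Ppbp (2.82) and Pf4 (1.18), both chemokines of platelet granules. Ppbp was near 0 in heart WT, at a mean of 0.0899 CPM against 0.798 CPM in KO. Its fold change therefore rests on few counts, almost all in KO, and it is among the 7 tested genes. In EC 9 platelet genes were tested and 3 rose, Pf4 (1.30), Clec1b (1.20) and Gp1ba (1.09). The summed platelet TPM was 8.36 to 10.6 in heart WT and 21.5 to 30.1 in heart KO, with a median log2 fold change of 0.57 over the 7 tested genes, and 45.7 to 89.0 in EC WT and 97.0 to 168 in EC KO. Of 14 neutrophil genes, 4 were tested in heart, where Mmp9 fell (-1.56), and their summed TPM was 2.06 to 3.71 in WT and 2.29 to 3.11 in KO. In EC 12 neutrophil genes were tested, with a median log2 fold change of -1.57 and the lowest adjusted p, 0.069, at Camp. B and T cell genes summed to 1.28 to 2.03 TPM in heart WT and 1.82 to 2.96 TPM in heart KO, and 1 of 12 such genes had enough counts to be tested there.

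Of 12 monocyte and macrophage genes, all tested in both tissues, 5 rose in heart, among them Lyz2 (1.16), C1qa (0.94) and C1qb (0.89), and 5 rose in EC, among them Lyz2 (1.09), Ccr2 (1.00) and Adgre1 (0.79). Their summed TPM was 99.4 to 141 in heart WT and 234 to 379 in heart KO, with a median log2 fold change of 0.55. Of 14 endothelial genes, the median log2 fold change in heart was 0.17, while their summed TPM was 204 to 290 in WT and 333 to 358 in KO. Of these, 3 rose, Vwf (0.78), Emcn (0.62) and Pecam1 (0.45), while Erg (-0.42) fell. Cardiomyocyte genes were abundant in heart, as the tissue label has it, at a summed 34360 to 43885 TPM in WT and 54722 to 62896 TPM in KO, with a median log2 fold change of -0.01. Of these 12 genes, 4 rose, led by Myl7 (2.92), Myl2 (0.64) and Tnni3 (0.51), and 2 fell, Ttn (-1.53) and Nppa (-1.15). The part of any of these cells in the globin values was not tested. Endothelial genes were plentiful in the EC libraries, with Pecam1 at 364 to 750 TPM in WT and 930 to 1007 TPM in KO. Genes of other cells were plentiful there too. Summed TPM was 9968 to 19806 for white adipocyte genes, 4582 to 8098 for brown adipocyte genes and 613 to 3220 for smooth muscle genes.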

How the data were processed

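mRNA had been captured with oligo-dT in 13 directional libraries. Per the labels and the study's methods, the authors ran kallisto 0.44.0 on each library alone. The submitters' processing notes name the builds mm10 and GRCh38.p13, and the methods GENCODE M32. The authors deposited each library's estimated counts per transcript, not normalized, and the deposited TPM values are the authors' length-scaled values. Kallisto shares reads of like copies by likelihood, and by default ignores strand.

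Of 118489 transcripts, 115140 matched GENCODE M39 (GRCm39) by identifier without version and gave 36109 genes; transcripts not matched held 0.755% to 1.01% of counts. Counts were summed per gene and rounded. Genes kept by filterByExpr (minimum count 10) were TMM-normalised and tested with edgeR 4.0.16 in R 4.3.3 (glmQLFTest); figures used matplotlib 3.10.9. On simulated counts with 200 genes changed by 2 on the log2 scale, edgeR called 200 in EC and 200 in heart, and 184 in the interaction. It also called 12, 2 and 8 unchanged genes. The changed genes were drawn from well-counted genes, with a fixed dispersion for all genes. The simulation therefore does not cover genes of few counts such as Slc4a1. Shares used two-sided exact permutation tests. DESeq2 1.42.0, other scalings, no filter, the replicate block and leaving out each library were alternatives. The members and the gene lists were chosen with earlier results of these data known. Named were all members, up to 8 passing genes per direction of the red cell, globin, heme and clearance lists and up to 3 of the others, defining genes near 0, and the 5 nearest genes. EC and heart libraries were treated as independent, since the labels do not say which came from 1 mouse. Values of some genes of the lists are not reported here.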

Additional observations from a re-analysis of the deposited data

Results flagged for a closer look

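In heart WT, where 4 libraries allow Dixon's test, 15 quantities were examined, and chance marks about 1 in 20. The Bpgm value of heart WT 1, 17.1 CPM, stood apart from the other 3, with a gap of 0.917 of the group's range, and this library is the shallow one. For Slc4a1, heart WT 4 stood apart with a gap of 0.846 of the range, on 7 estimated counts against 0, 0 and 1.

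The genotype effect differed between tissues, by the interaction term (heart minus EC, log2), for Hbb-bs (2.48), Hbb-bt (2.18), Hba-a1 (2.17), Hba-a2 (2.20), the Hbb pair (2.44), the Hba pair (2.18), Alas2 (1.78) and Slc4a1 (3.81). Each copy shares reads with its partner, so the 4 single globins are not separate evidence beside the 2 pairs.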

How the results depend on the processing

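The heart values of the globin pairs and Alas2 and their interactions passed under every alternative run, with the Hbb pair between 1.68 and 2.45 on the log2 scale in heart. Leaving out 1 library gave 2.01 to 2.45 for the Hbb pair and 1.74 to 2.12 for the Hba pair. The number of EC genes that passed was 4319 in 1 fit of all 13 libraries and 638 to 3596 when 1 library was left out. The number of heart genes that passed was 2888 without heart KO 2 and up to 5686 when another library was left out. EC values that did not pass changed sign with upper-quartile factors (Hbb-bt 0.028, Alas2 0.012), with counts from length-scaled TPM (Hbb-bt 0.0098) and, in an alternative added after seeing the data, with the length and GC trend removed (Hbb-bs 0.34, Hbb-bt 0.36, Hba-a1 0.28, Hba-a2 0.50, Alas2 0.12, Hbb pair 0.36, Hba pair 0.48). Leaving out the mitochondrially encoded mRNAs was also added then and changed no call of a member. Leaving out 1 library gave values of -0.33 to 0.089 for Hbb-bs, -0.27 to 0.18 for Hbb-bt, -0.35 to 0.043 for Hba-a2, -0.20 to 0.17 for Alas2, -0.32 to 0.10 for the Hbb pair and -0.38 to 0.024 for the Hba pair in EC. Heart minus EC in KO for the Hbb pair passed at -0.69 with upper-quartile factors and at -0.91 with the trend removed, and for the Hba pair it ran from -0.94 to -0.54 when 1 library was left out, passing in some fits. In heart, leaving out 1 library gave -0.37 to -0.27 for the log2 alpha to beta ratio and 0.191 to 0.246 percentage points for the globin share; those exact tests could no longer reach the threshold. The interaction of Slc4a1 ran from 2.90 to 6.02 and lost its call in 8 of 13 such fits. The median of the B and T cell list rests on 1 gene in heart. The cause of these changes was not tested. Heart WT 1, at 7268626 counts, limits genes of few counts.

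The labels do not say whether the replicate numbers pair the samples, and the main fits did not pair them. Same-numbered libraries deviated with correlations of 0.22, 0.08 and 0.06 in EC and -0.08, 0.12 and 0.06 in heart. Some libraries correlated best with their own number and others did not. Deviations from the means of so few libraries cannot decide whether the numbers pair. With the replicate number as a block, 2899 heart genes passed against 4618 without it, the Hbb pair in heart was 2.28 (adjusted p = 0.0020), and heart minus EC in KO for the Hba pair was -0.73 (adjusted p = 0.053). In EC, Slc4a1 (-1.84, adjusted p = 0.039) and Slc25a37 (0.53, adjusted p = 0.042) passed with the block.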
